A study of Mus musculus with 2 samples.

Results

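The 40 genes described here encode the machinery by which the endoplasmic reticulum (ER) folds, imports and destroys proteins, and the stress pathways that adjust it. They were chosen by symbol from the deposited count table, and all 40 were found among its 49315 genes. They were measured by RNA sequencing in 2 libraries of mouse macrophages of the dorsal root ganglion, where the cell bodies of sensory neurons lie. The control library came from sham-treated mice kept at about 21% oxygen (normoxia). The other library came from mice given chronic intermittent hypoxia, with chamber oxygen falling to 8% in cycles of 6 min, 8 h a day for 14 days, and is called the hypoxia library below. Tissue was taken about 18 h after the last exposure in both groups. The sources used here do not state strain, sex, age, the number of mice per library or how the cells were isolated. The hypoxia column was matched to its sample by the initial of its code alone.

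Proteins that a cell secretes or places in its membranes enter the ER through the Sec61 channel and are folded there by chaperones, while disulfide isomerases set their cysteine bonds. When unfolded proteins build up, 3 sensors, IRE1, ATF6 and PERK, raise chaperone and degradation genes, and PERK also slows protein synthesis and favours translation of the transcription factor ATF4. ATF4 also acts when amino acids run short, through genes such as Asns, the asparagine synthetase. In macrophages these pathways serve a large output of secreted and lysosomal proteins.

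Total counts were 2171348 in normoxia and 145056 in hypoxia, so depth differed 15.0-fold, and each group is 1 library. No difference therefore has a replicate check, no test across conditions was possible, and all intervals (95%, exact) cover counting error only. The number of reads per starting RNA molecule was estimated from genes that 1 library alone contains, as the median count of those with 10 counts or more. It came to 229 in normoxia and 39 in hypoxia, which assumes that each such gene came from a single molecule. These values are near the median count of all counted genes (230 and 42). Of the genes counted in normoxia alone, Pdia6 comes to 9.33 molecules at this scale and Dnajc3 to 0.349. The assumption therefore does not hold gene by gene, and the estimated molecules are a rough scale only. Intervals are given on reads and, where stated, on these estimated molecules, which give wider intervals. Levels are given as CPM, the count set against its library's total. A gene with 3 molecules would reach 316 CPM in normoxia, and 807 CPM in hypoxia. Only Hspa5, Tmbim6 and Pdia6 among the members were above 807 CPM in normoxia. The labelled cell type was only partly borne out by its markers. Of 10 macrophage markers, 9 were counted in normoxia (0.406% of counts) and 0 in hypoxia, with Adgre1, Cd68, Csf1r and the 3 C1q genes all at 0. Of 10 neutrophil markers, 8 were counted in normoxia (1.79% of counts) and 9 in hypoxia (10.3%), and 8 erythroid markers took 9.60% and 7.87%. In bulk libraries, fewer cells of a type and less RNA per cell cannot be told apart, and the part of these other cells in the results below was not tested.

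Many genes of the unfolded protein response carry a short control sequence, the ER stress element, in their promoters. It was searched as CCAAT, 9 bases of any kind, then CCACG, on both strands, in RefSeq promoter windows (GRCm38.p6). These run from 250 bases before to 50 bases after a start site of the gene. Match positions are counted from that start site, which can differ from the GENCODE gene start given further below. A promoter entry was found for 33 of the 40 members, and 8 of these (24.2%) held the element, against 0.119% of all 32851 promoter windows. Counted by window, as the background is, 8 of 36 member windows held it. The members were picked as genes of this response, which often carry the element, so their high share is no independent evidence. The 8 members were Hspa5, Hsp90b1, Dnajc3, Creld2, Calr, Canx, Pdia6 and Syvn1. Counting genes rather than windows, 37 genes held the element, so these 8 were 21.6% of them. The CCACG end alone, which every full element contains, was in 25 of the 33 (75.8%) and 26 of the 36 member windows, against 32.8% of all windows. A match is a description of the letters and does not show that a factor binds there. The windows of the members with most counts in normoxia follow, with the bases that define the match in capitals.
Hspa5: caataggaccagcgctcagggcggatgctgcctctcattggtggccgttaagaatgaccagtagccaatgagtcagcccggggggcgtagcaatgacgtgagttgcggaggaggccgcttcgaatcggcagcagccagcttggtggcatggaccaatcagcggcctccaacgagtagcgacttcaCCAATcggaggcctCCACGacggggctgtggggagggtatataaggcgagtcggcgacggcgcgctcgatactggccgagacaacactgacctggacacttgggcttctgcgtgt
Pdia6: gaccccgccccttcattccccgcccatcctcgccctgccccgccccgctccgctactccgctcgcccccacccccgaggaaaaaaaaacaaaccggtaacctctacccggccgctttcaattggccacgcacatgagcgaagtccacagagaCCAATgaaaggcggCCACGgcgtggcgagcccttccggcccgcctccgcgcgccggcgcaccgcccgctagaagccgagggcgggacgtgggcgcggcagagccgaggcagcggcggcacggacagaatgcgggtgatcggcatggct
Hsp90b1: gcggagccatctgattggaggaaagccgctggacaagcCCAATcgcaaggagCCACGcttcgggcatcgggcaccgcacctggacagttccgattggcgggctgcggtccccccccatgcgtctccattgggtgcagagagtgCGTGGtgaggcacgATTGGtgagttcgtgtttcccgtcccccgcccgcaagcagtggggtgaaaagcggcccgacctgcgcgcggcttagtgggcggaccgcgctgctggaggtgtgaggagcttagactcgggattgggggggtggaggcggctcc
Canx: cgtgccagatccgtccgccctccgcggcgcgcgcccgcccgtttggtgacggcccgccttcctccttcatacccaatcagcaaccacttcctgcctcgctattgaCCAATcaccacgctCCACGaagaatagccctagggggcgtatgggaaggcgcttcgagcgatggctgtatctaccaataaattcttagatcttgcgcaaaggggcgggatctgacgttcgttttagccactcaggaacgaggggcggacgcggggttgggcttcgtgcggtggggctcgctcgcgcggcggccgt
The window of Hspa5 is chr2:34771840-34772139 on the plus strand, with the match at positions -65 to -47 from the window's start site. The GENCODE gene begins upstream of this match. That of Pdia6 is chr12:17266339-17266638 on the plus strand, with the match at -98 to -80. Hsp90b1 (chr10:86705395-86705694, minus strand) was the only member with 2 matches, 1 in each orientation, at -212 to -194 and at -107 to -89. Canx (chr11:50325624-50325923, minus strand) has its match at -145 to -127.

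A different sequence, the C/EBP-ATF element, is the type through which ATF4 acts on its target genes. It was searched as TGATGNAAN on both strands and was found in 5 of the 33 members (15.2%) and 5 of their 36 windows, against 3.95% of all windows. These were Asns, Chac1, Trib3, Herpud1 and Txndc5. Asns, Chac1 and Trib3 were picked as genes of the PERK-ATF4 branch, so the higher share is no independent evidence. No member's window held both elements. The UPR element TGACGTGG was found in 1 of the 33 members, in 1 of the 36 member windows (of Txndc5), and in 0.676% of all windows. The window of Txndc5 is shown because it had the most normoxia counts of these 5 members, and that of Asns is added because its values, already seen, set it apart in the results.
Txndc5: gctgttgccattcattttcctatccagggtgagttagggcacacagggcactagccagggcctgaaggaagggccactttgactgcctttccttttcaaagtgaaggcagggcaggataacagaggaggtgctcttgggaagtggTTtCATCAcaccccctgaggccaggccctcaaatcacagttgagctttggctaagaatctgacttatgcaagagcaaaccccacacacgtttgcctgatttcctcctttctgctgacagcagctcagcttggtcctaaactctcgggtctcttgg
Asns: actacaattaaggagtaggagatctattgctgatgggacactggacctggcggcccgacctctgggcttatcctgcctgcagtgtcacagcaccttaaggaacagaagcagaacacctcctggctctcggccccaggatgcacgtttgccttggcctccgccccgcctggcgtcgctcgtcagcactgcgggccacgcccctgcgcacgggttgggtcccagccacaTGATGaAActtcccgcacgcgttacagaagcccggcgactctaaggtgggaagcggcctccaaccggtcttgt
The Txndc5 window is chr13:38528775-38529074 on the minus strand, 1 of 3 such windows of this gene, with the match at -106 to -98 in reverse. The Asns window is chr6:7693160-7693459 on the minus strand, with the match at -23 to -15, close to the window's start site. The GENCODE gene of Asns also begins upstream of its match.

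Of the 40 members, normoxia had counts for 27 and hypoxia for 10, with 9 counted in both libraries and 12 in neither. Among protein-coding genes, 19.4% were counted in normoxia and 8.39% in hypoxia, so both shares of the members (67.5% and 25%) were above the level of genes in general. Of the 27 members counted in normoxia, 9 (33.3%) were also counted in hypoxia, against 25% of all genes counted in normoxia. Detection in the hypoxia library depended on abundance. Of all genes with under 100 counts in normoxia, 13.4% were counted in hypoxia, as were 18.3% of those with 100 to under 300, 30.3% of those with 300 to under 1000, and 69.1% of those with 1000 or more. For the members the counts were 0 of 4, 4 of 8, 1 of 8 and 4 of 7 in the same classes. The members' shares were not in the order of abundance, with few members in each class. The 9 members counted in both libraries had a median of 524 counts in normoxia (125 to 3125), and the 18 counted in normoxia alone had 366 (1 to 2212).

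**Figure D1:**
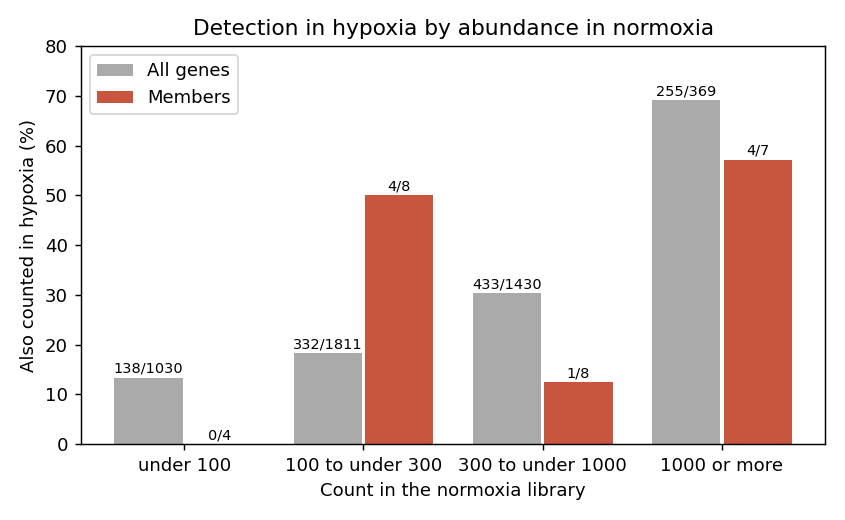
Percent of genes also counted in the hypoxia library (y axis) by their count in the normoxia library (x axis), for all genes and for the members; the numbers over the bars give genes counted of genes in the class. Detection climbs from 13.4% to 69.1% over the classes for all genes, whereas the members give 4 of 8 at 100 to under 300 counts and 1 of 8 at 300 to under 1000.

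A gene is said to pass the size rule when its share of total counts differs at least 2-fold between the libraries and the interval of the ratio excludes 1, with a count of 0 taken as 3 counts and at least 50 counts over both libraries. Of 26 members with enough counts, 15 were lower in hypoxia (57.7%), against 66.9% of all 4215 genes tested, and 5 were higher (19.2%), against 16.1%. All members called lower except Hspa5 had 0 counts in hypoxia. At this difference in depth, the rule calls any gene with 0 counts in hypoxia lower once its normoxia count is large enough. Such calls restate that a gene was not counted in the shallower library. With 0 taken as 3 counts, the median log2 ratio of hypoxia over normoxia was -2.40 over the 26 members and -1.95 over all genes tested. Among tested genes counted in both libraries the median ratio was above 1, at 1.36 over 9 members and 1.61 over 1108 genes. The negative medians thus come from the genes with 0 counts. As a set, the members were close to the background on reads. With intervals on estimated molecules, 0 members were lower, against 0.38% of all genes tested, and 1 was higher, against 0.83%. That gene was Asns. As a gene counted in hypoxia alone, Asns was among those that set the 39 reads per molecule there. That step assumes 1 molecule for each such gene, whereas the 179 counts of Asns come to 4.59 at this scale. The spread of reads per molecule between genes is not in these intervals, so the call rests on the assumed scale. TMM scaling (a trimmed mean of gene-wise ratios), which draws on genes counted in both libraries, moves every log2 ratio by -0.80. With TMM and intervals on molecules together, 3 members were lower (Hspa5, Pdia6 and Tmbim6), against 1.3% of all genes tested, and Asns again was the only member higher, against 0.19%. These 3 were the only members above 807 CPM in normoxia, and few genes at lower levels could be called lower. The 1.3% was not matched for abundance, so it is no like background for them. Pdia6 and Tmbim6 were also among the genes that set the reads per molecule in normoxia.

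**Figure D2:**
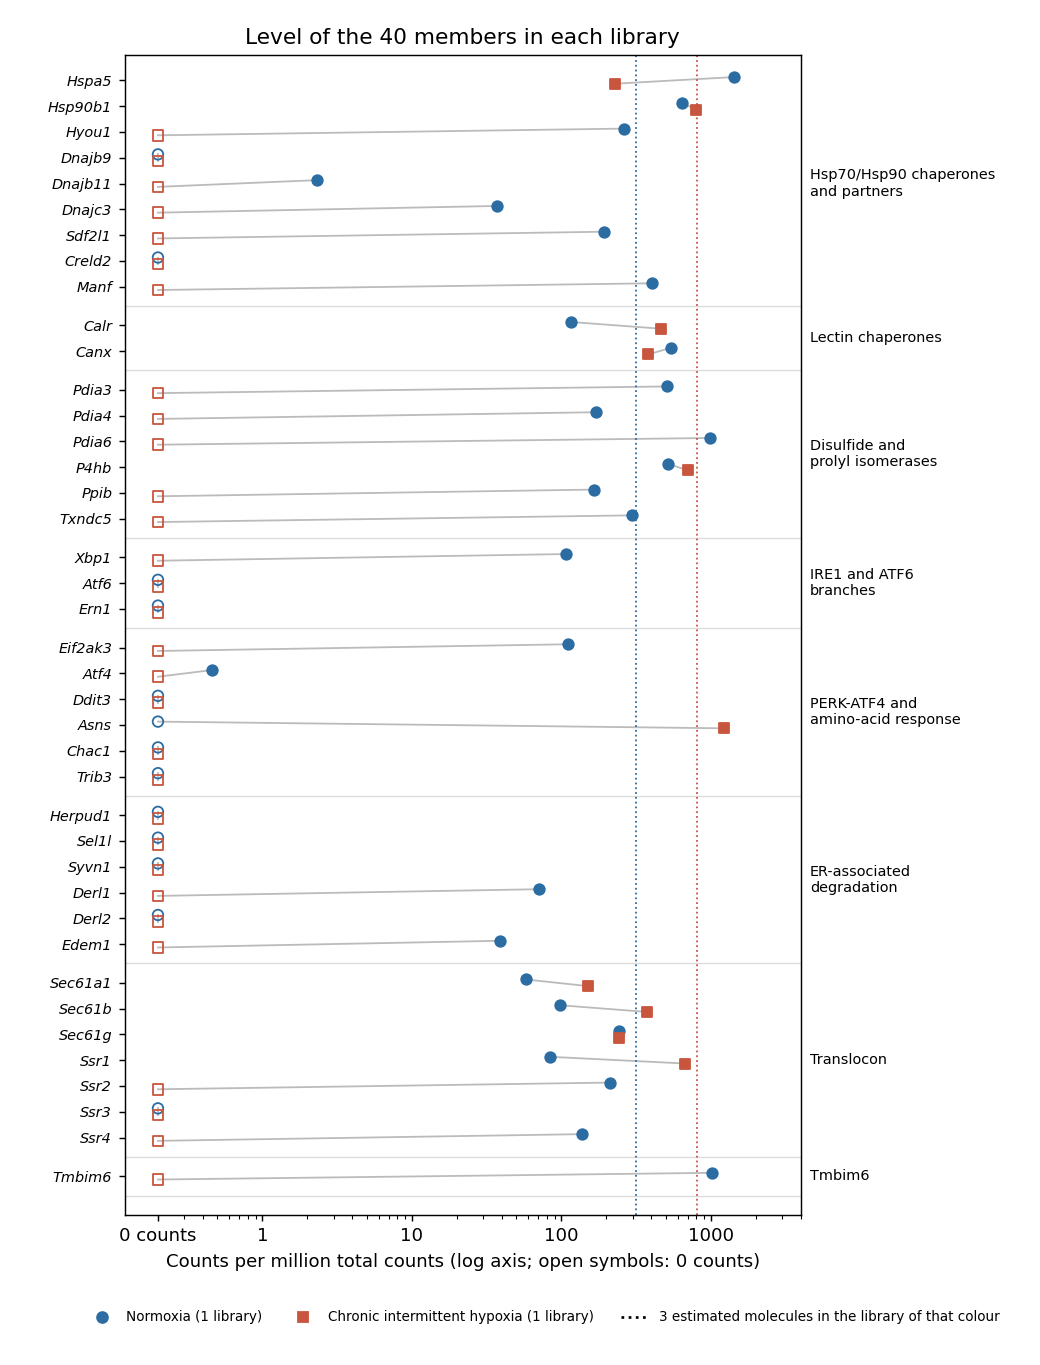
CPM, scaled to total counts (log axis), of each of the 40 members in the normoxia library (circles) and the hypoxia library (squares), grouped by role; open symbols at the left stand for 0 counts, and dotted lines mark 3 estimated molecules (316 CPM in normoxia, 807 CPM in hypoxia). Asns is alone in having 0 counts in normoxia and counts in hypoxia, and most other members with open squares had a normoxia level left of the hypoxia line.

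Hspa5 encodes BiP, the Hsp70 of the ER lumen, which binds unfolded chains and holds the 3 stress sensors inactive. It (ENSMUSG00000026864) lies on chromosome 2 (34771970 to 34777547 on GRCm38, from GENCODE M21, as are all gene positions here). It had 3125 counts in normoxia against 33 in hypoxia, or 1439 and 227 CPM. Hspa5 had the most counts of all members in normoxia, where it ranked 60 among all genes, and ranked 1258 in hypoxia. The ratio of hypoxia over normoxia was 0.158 (0.109 to 0.222 on reads), a 6.33-fold lower level. On estimated molecules, 13.6 in normoxia against 0.846, the interval ran from 0.0021 to 1.17, and with TMM its upper limit was 0.670.

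Hsp90b1 encodes GRP94, the Hsp90 of the ER. It had 1389 counts in normoxia against 116 in hypoxia, or 640 and 799.7 CPM. The ratio was 1.25 (1.03 to 1.51 on reads, 0.201 to 5.84 on molecules), and 0.716 with TMM, so its direction depended on the scaling. The other chaperones were counted in normoxia alone or not at all. Manf, a secreted ER-resident survival factor, had 876 counts in normoxia against 0 in hypoxia. Hyou1, a large Hsp70-like exchange factor of BiP, had 567 and 0. Sdf2l1, a partner of ER J-domain proteins, had 416 and 0. Dnajc3, a J-domain co-chaperone that also inhibits PERK, had 80 and 0. All 4 lay below 807 CPM in normoxia, the level of 3 molecules in hypoxia, so their absence there was within what so few molecules allow. The J-domain co-chaperone Dnajb11 had 5 and 0 counts, and Dnajb9 and Creld2 had 0 in both libraries.

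Calr and Canx encode calreticulin and calnexin, the lectin chaperones that hold sugar-bearing proteins until they fold. Both were counted in both libraries, in opposite directions on total counts. Calr had 250 counts in normoxia against 67 in hypoxia, or 115 and 462 CPM, giving a ratio of 4.01 (3.02 to 5.27 on reads). Canx had 1183 and 55 counts, or 545 and 379 CPM, a ratio of 0.696 (0.521 to 0.912). With TMM the ratios were 2.30 and 0.399, so Canx then passed the size rule as well. On estimated molecules, both intervals included 1 (0.176 to 194 for Calr and 0.036 to 5.00 for Canx), since Calr rests on 1.09 and 1.72 molecules and Canx on 5.17 and 1.41.

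The 6 isomerases were all counted in normoxia, and P4hb alone in hypoxia. P4hb, the first-described protein disulfide isomerase and a subunit of prolyl hydroxylase, had 1120 counts in normoxia against 102 in hypoxia, or 516 and 703 CPM. Its ratio was 1.36 (1.10 to 1.67 on reads, 0.182 to 7.49 on molecules) and 0.781 with TMM, so its direction turned as for Hsp90b1. Pdia6 (ENSMUSG00000020571, chromosome 12, 17266545 to 17284770), a disulfide isomerase that also attenuates sensor signalling, had 2137 counts in normoxia (984 CPM) and 0 in hypoxia. Its level in normoxia was above the 807 CPM of 3 molecules, with an upper limit of the ratio of 1.24 on molecules, or 0.708 with TMM. Pdia3, which works with the lectin chaperones and in class I antigen loading, had 1110 counts and 0. The other isomerases with 0 counts in hypoxia had lower normoxia counts, namely Txndc5 with 647, Pdia4 with 372 and the prolyl isomerase Ppib with 360. Ppib shares exon sequence with Snx22 on the opposite strand, which had 226 counts in normoxia. The strand setting of the counting is not given, so reads of the 2 genes cannot be told apart.

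Taken as 1 group after the values were seen, the 17 chaperones, lectins and isomerases held 13637 counts in normoxia and 373 in hypoxia. Their share was 0.628% (0.618 to 0.639) in normoxia against 0.257% (0.232 to 0.285) in hypoxia, which gives a ratio of 0.409. The interval was 0.183 to 0.816 on molecules, and 0.105 to 0.468 with TMM, where the ratio was 0.235. By role, the chaperones had a ratio of 0.345 (0.0847 to 1.01 on molecules), the isomerases 0.266 (0.044 to 0.929) and the lectins 1.27 (0.217 to 5.76). Of the 14 genes of this group with enough counts, 9 were lower and 1 was higher by the size rule on reads. Of all genes tested, 66.9% were lower and 16.1% higher, so the group's lower calls were near the background. Hspa5 and Pdia6 held 5262 of the counts of the 17 genes in normoxia. A list of 22 further folding genes, given below, went the other way with a ratio of 2.83 (0.847 to 9.64 on molecules). The lower share thus holds for these 17 genes and not for ER folding genes in general. Over the same libraries the neutrophil markers were 5.76-fold higher as a share of counts and the macrophage markers went to 0, and the part of that in this ratio was not tested.

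**Figure D3:**
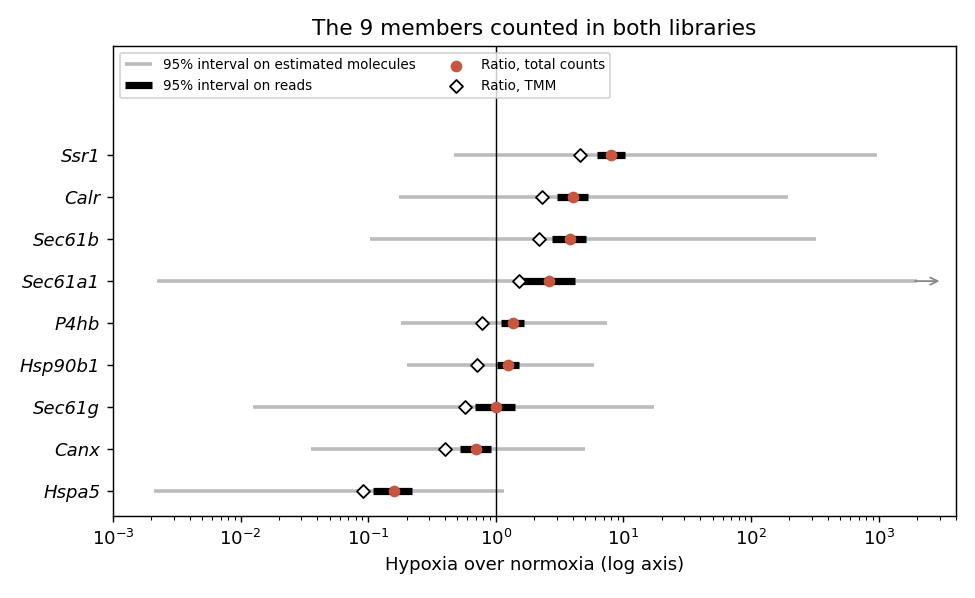
Ratio of hypoxia over normoxia (log axis) for the 9 members counted in both libraries, on total counts (filled circles) and with TMM (diamonds), with 95% intervals on reads (black) and on estimated molecules (grey; the arrow marks an interval that runs past the axis). Hspa5 is lowest at 0.158 and Ssr1 highest at 7.98, and every grey interval crosses 1.

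Of the 7 translocon genes, 6 were counted in normoxia and 4 of these also in hypoxia. Sec61a1 encodes the pore of the channel, and Sec61b and Sec61g its small subunits. Sec61a1 had 125 counts in normoxia against 22 in hypoxia, giving a ratio of 2.63 (1.59 to 4.17 on reads), which was 1.51 with TMM and then no longer passed the size rule. Sec61b had 213 and 54 counts, a ratio of 3.79 (2.76 to 5.14), or 2.17 with TMM. Sec61g had 524 and 35 counts, or 241.3 CPM in each library, with a ratio of 1.00 (0.689 to 1.41), or 0.573 with TMM. On estimated molecules the intervals of the 3 subunits overlapped and all included 1, at 0.0022 to 3696 for Sec61a1, 0.104 to 322 for Sec61b and 0.0125 to 17.3 for Sec61g, so their ratios cannot be told apart. Ssr1, Ssr2, Ssr3 and Ssr4 encode the TRAP complex beside the channel, which helps some proteins to enter. Ssr1 had 182 counts in normoxia against 97 in hypoxia, or 83.8 and 669 CPM, a ratio of 7.98 (6.17 to 10.3 on reads) that was 4.57 with TMM. Its partner Ssr2 had 456 and 0 counts, Ssr4 had 297 and 0, and Ssr3 had 0 in both. On estimated molecules the interval of Ssr1 was 0.467 to 976, from 0.795 and 2.49 molecules. Sec61b, Sec61g and Ssr2 have near-identical sequence elsewhere in the annotation (97.8% to 99.1% over at least 200 bases), so their values are uncertain. As a group the translocon had a share of 0.0828% in normoxia against 0.143%, giving a ratio of 1.73 (0.462 to 5.93 on molecules), which was 0.993 with TMM.

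Of the genes of the IRE1 and ATF6 branches, 1 of 3 was counted in normoxia and 0 in hypoxia. Xbp1, the factor made when IRE1 splices its mRNA, had 235 counts in normoxia (108 CPM) against 0 in hypoxia. Gene counts do not separate its spliced form. Ern1, which encodes IRE1, and Atf6 had 0 counts in both libraries. In normoxia, 0 counts allow up to 1.38 CPM at 3 reads, or 316 CPM at 3 estimated molecules, so low levels could not be seen.

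In the PERK-ATF4 branch, Asns was the gene counted in hypoxia. Asns (ENSMUSG00000029752) lies on chromosome 6 (7675169 to 7693254) and encodes the enzyme that makes asparagine from aspartate and glutamine, a long-known target of ATF4. It had 0 counts in normoxia against 179 in hypoxia (1234 CPM, 4.59 estimated molecules). In hypoxia it had the most counts of any member and ranked 84 among all genes. The lower limit of its ratio was 2.07 on estimated molecules and 1.18 with TMM. Both limits take reads per molecule as fixed at 39, the median over genes counted in hypoxia alone, Asns among them. Counts in hypoxia alone were common, at 43.5% of the genes counted there (892 genes), but their median count was 34 and Asns was the third highest, with a maximum of 195. Among the 10 members counted in hypoxia it was the only such gene. It shares no exon with another annotated gene.

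No other gene of the branch was counted in hypoxia. Eif2ak3, which encodes PERK, had 240 counts in normoxia and 0 in hypoxia. Atf4 itself had 1 count and 0, and its targets Ddit3 (CHOP), Chac1 (a glutathione-degrading enzyme) and Trib3 (a pseudokinase that restrains ATF4 and CHOP) had 0 in both libraries. Low levels of these genes would lie under the level of 3 molecules, so a lack of counts does not show a lack of expression. Ddit3 also has exons that overlap those of the tRNA synthetase gene Mars on the opposite strand, which had 414 counts in normoxia. The strand setting of the counting is not given, so in the overlap reads of Ddit3 cannot be told apart from those of Mars. The 0 of Ddit3 is limited by this too.

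Degradation genes, which pull failed proteins out of the ER for the proteasome, were mostly uncounted. Derl1, a channel component, had 155 counts in normoxia against 0 in hypoxia, and Edem1, a mannosidase-like lectin that picks substrates, had 85 and 0. Herpud1, Sel1l, Syvn1 and Derl2 had 0 in both libraries. Derl2 shares exon sequence with Mis12 on the opposite strand (199 counts in normoxia), so its 0 carries the same limit as that of Ddit3. Tmbim6 (ENSMUSG00000023010, chromosome 15, 99392882 to 99410049), an ER membrane protein that limits calcium release and cell death, had 2212 counts in normoxia (1019 CPM) and 0 in hypoxia. It was the second most counted member in normoxia, with an upper limit of the ratio of 1.19 on molecules, or 0.679 with TMM.

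Shares within the members of 1 library do not depend on the scaling between libraries. In normoxia the chaperones held 35.2% of the members' 18362 counts, the isomerases 31.3%, Tmbim6 12.05%, the translocon 9.79%, the lectins 7.80% and the PERK-ATF4 branch 1.31%. In hypoxia, of 760 counts, the translocon held 27.4%, the PERK-ATF4 branch 23.6%, the chaperones 19.6%, the lectins 16.1% and the isomerases 13.4%. The branch share had intervals on molecules of 0.0389% to 6.86% in normoxia and 7.62% to 47.9% in hypoxia, which do not overlap. The hypoxia interval takes Asns as 4.59 molecules, though Asns is among the genes assumed to be single molecules. The branch share came from Eif2ak3 and 1 read of Atf4 in normoxia and from Asns alone in hypoxia. No gene of the branch was thus counted in both, and without Asns the branch share in hypoxia is 0%. For every other role group the intervals of the 2 libraries overlapped. The members came to about 80.2 molecules in normoxia and 19.5 in hypoxia.

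**Figure D4:**
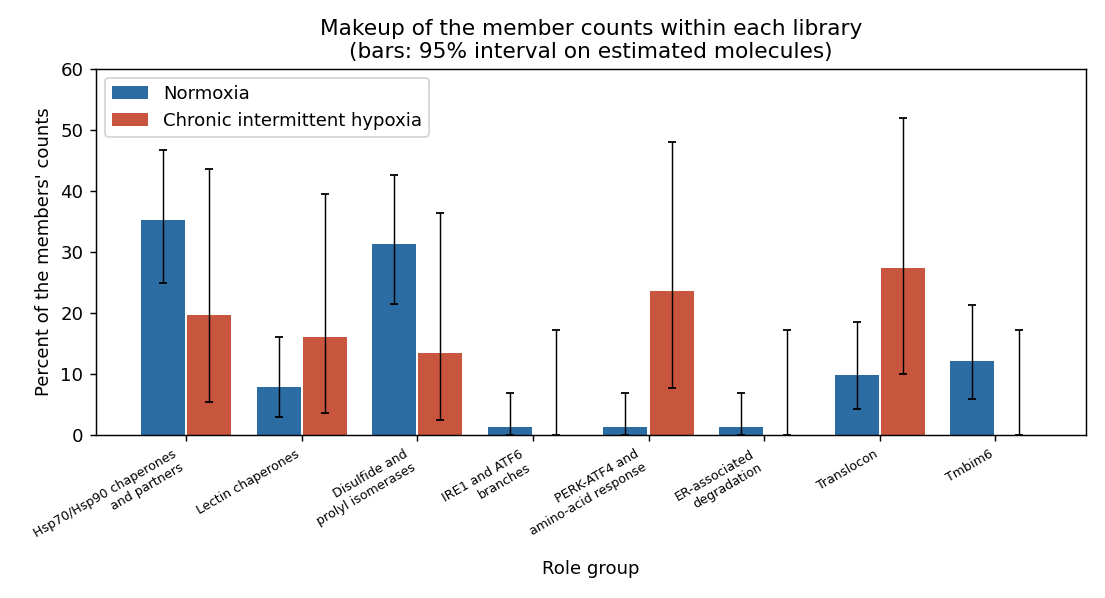
Percent of the members' counts (y axis) held by each role group within the normoxia library and within the hypoxia library, with 95% intervals on estimated molecules as error bars. The PERK-ATF4 group holds 1.31% in normoxia and 23.6% in hypoxia, with intervals that do not overlap, while those of the other groups do. Its hypoxia interval takes Asns as 4.59 estimated molecules.

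Levels can be compared between genes on the authors' TPM values, which correct for length. In normoxia Hspa5 had the highest level at 623 TPM, followed by Tmbim6 at 490 and Pdia6 at 481. P4hb (330 TPM), Sdf2l1 (316), Pdia3 (298) and Hsp90b1 (290.3) came next. In hypoxia Asns was highest at 634 TPM, followed by Sec61b at 411, P4hb at 345, Hsp90b1 at 278 and Calr at 225. Hspa5 was second lowest of the 10 there at 75.5 TPM, above Sec61a1 at 31.6. The order in hypoxia rests on 0.564 to 4.59 estimated molecules a gene, so neighbours in it cannot be told apart.

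Of the 8 members with the ER stress element, 6 were counted in normoxia and 4 in hypoxia (Hspa5, Hsp90b1, Calr and Canx). Of the 25 members with a promoter entry and no such element, 15 and 5 were counted. Among all genes with a promoter entry found in the count table, 17.3% were counted in normoxia and 7.53% in hypoxia. The median count in normoxia was 716.5 for the 8 members and 85 for the 25. Over all 31 genes with the element found in the count table, these members included, 8 (25.8%) were counted in normoxia and 5 in hypoxia. Their median count in normoxia was 0, and the only non-members among them with counts were Esp16 and Hnrnpa3. The higher median thus holds within the members alone. The 4 members with the element that were counted in both libraries did not share a direction, with ratios of 0.158, 1.25, 4.01 and 0.696 in the order above. Of the 5 members with the C/EBP-ATF element, Txndc5 was counted in normoxia alone and Asns in hypoxia alone, and Chac1, Trib3 and Herpud1 in neither.

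Other genes of the same pathways, 117 found by symbol of 119 listed, were counted by the same rules. Normoxia had counts for 47 and hypoxia for 23, with 15 in both libraries. Of 48 with enough counts, 27 were lower (56.2%) and 9 higher (18.8%), against 66.9% and 16.1% of all genes tested. In a list of 28 further amino-acid and integrated stress response genes, 8 were counted in normoxia and 6 in hypoxia, and of 9 with enough counts 4 were lower and 2 higher. Eif4ebp1, a translation inhibitor and ATF4 target, had 0 counts in normoxia and 70 in hypoxia. Eif2s1, the initiation factor subunit that PERK phosphorylates, had 259 and 74, a ratio of 4.28 (3.26 to 5.56 on reads, 0.221 to 182 on molecules). Ppp1r15a, which reverses that phosphorylation, had 523 and 45, a ratio of 1.29 (0.928 to 1.75), or 0.738 with TMM. Slc3a2, the shared heavy chain of several amino acid transporters, had 807 and 0. Its light-chain partner Slc7a5, named after its values were seen, had 0 and 40. Both genes of this 1 transporter were thus counted in different libraries. The other counted genes of this list were not in hypoxia alone. Eif2ak1 had 523 and 0, Cebpg 451 and 0, and Slc1a5 249 and 0. Nupr1 had 472 and 25, a ratio of 0.793, and Cebpb had 232 and 21, a ratio of 1.35. Neither of these ratios passed the size rule.

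Of 19 aminoacyl-tRNA synthetase genes, 7 were counted in normoxia and 3 in hypoxia, and of 7 with enough counts 3 were lower and 2 higher. These numbers leave out Mars, which was listed under its newer symbol Mars1 and so was missed. Mars had 414 counts in normoxia and 0 in hypoxia. Nars, the asparaginyl-tRNA synthetase, which uses the product of Asns, had 439 counts in normoxia against 48 in hypoxia, giving a ratio of 1.64 (1.19 to 2.21 on reads), or 0.938 with TMM. Rars had 167 and 50, a ratio of 4.48, and Gars had 608 and 0. Of 27 further translocation and glycosylation genes, 20 were counted in normoxia and 5 in hypoxia, and of 19 with enough counts 14 were lower and 2 higher, near the shares of all genes. The signal peptidase gene Sec11c had 332 and 56 counts, a ratio of 2.52, and the channel-associated gene Sec62 had 191 and 65, a ratio of 5.09. Ostc, of the oligosaccharyltransferase, had 991 and 0, and Srp14, of the signal recognition particle, had 825 and 0. Among 22 further folding genes, 6 were counted in normoxia and 5 in hypoxia, and of 7 with enough counts 1 was lower and 3 were higher. As a group these 22 had a ratio of 2.83 (0.847 to 9.64 on molecules), or 1.62 with TMM. That is the opposite direction to the 0.409 of the 17 folding members. Fkbp2, an ER prolyl isomerase, had 0 and 74 counts, Erp29 had 143 and 62, Erp44 had 806 and 51, and Calu had 414 and 0. Among 21 further degradation genes, 6 were counted in normoxia and 4 in hypoxia, and of 6 with enough counts 5 were lower and 0 higher. Ubxn4 had 446 and 0 counts, Ufd1 405 and 0, Ube2g2 0 and 43, and the stress-linked factor gene Creb3 0 and 28. On estimated molecules none of the named genes of these lists with at least 50 counts passed the size rule.

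Plasma cells are rich in ER chaperones, so their markers were counted too. Of 11 plasma and B cell markers, 6 were counted in normoxia (0.0807% of counts) and 1 in hypoxia. That 1 was Mzb1, a partner of GRP94 in the ER, with 0 counts in normoxia and 55 in hypoxia, while Jchain had 211 and 0, and Sdc1 and Tnfrsf17 had 0 in both libraries. All 6 fibroblast markers had 0 counts in hypoxia, against 3 counted in normoxia. The part of these cells in the members' values was not tested.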

How the data were processed

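RNA was sequenced from 2 libraries, 1 per group. The submitters' processing notes list bcl2fastq 2.20, STAR 2.5.2b, featureCounts and Subread 1.5.2. Not given in the sources used here are build, annotation and strand setting. Unnormalized read counts were deposited for each gene, along with TPM values that the authors computed for the same genes. The TPM values had zeros at the same genes and a constant ratio to the counts between libraries (11.48 to 11.49), so they add no separate measurement.

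Counts were set against total counts, with Clopper-Pearson and conditional binomial intervals (scipy 1.17.1). Alternatives were TMM (edgeR 4.0.16), DESeq2 1.42.0 size factors, totals without 11 globin genes, other count minimums and estimated molecules. Scaling to 79 ribosomal protein genes, the 17 folding genes as 1 group, TMM together with molecules and leaving out Asns were added after seeing the data. No molecular identifiers are mentioned, so reads are not independent molecules. Members and lists were chosen with earlier results of these data known. Every member is named, and of each further list the 2 genes with most counts and up to 2 with most in hypoxia. Of the amino-acid and integrated stress response list, all counted genes are named, which was added after seeing the data. Protein ends were not analysed here, with no protein table used. Near-identical transcripts were searched with blastn 2.17.0 at 97% identity.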

Additional observations from a re-analysis of the deposited data

How the results depend on the processing

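No paired analysis was possible because each group is 1 library, and for the same reason no replicate could be left out. TMM, DESeq2 size factors and ribosomal protein scaling gave near-equal shifts. In that order, the ratio of all members went from 0.620 to 0.355, 0.369 and 0.369, chaperones from 0.345 to 0.198, 0.206 and 0.205, isomerases from 0.266 to 0.152, 0.158 and 0.158, and the 17 folding genes from 0.409 to 0.235, 0.244 and 0.244. The lectin ratio of 1.27 turned to 0.730, 0.758 and 0.758, and the translocon ratio of 1.73 went to 0.993, 1.03 and 1.03. Without the most counted member, the ratio was 0.714 for all members, 0.521 for chaperones and 0.484 for the folding genes (all without Hspa5), 4.01 for lectins (without Canx), 0.423 for isomerases (without Pdia6) and 2.03 for the translocon (without Sec61g). The PERK-ATF4 share of member counts was 0.0117% in normoxia and 28.1% in hypoxia without the most counted member of each branch (here Eif2ak3, which had 0 counts in hypoxia), and 0.750% and 26.9% on TPM. Without Asns, left out after seeing the data, it was 1.31% and 0%, so the hypoxia share rests on that gene. Members lower numbered 15, or 0 on molecules and 3 on molecules with TMM, and members higher numbered 5, or 3 with at least 200 counts, 1 on molecules and 1 on molecules with TMM. Leaving out globin genes moved no call of a member. With TMM, Canx, Dnajc3 and Edem1 came to pass the size rule as lower and Sec61a1 no longer passed, while Hsp90b1 and P4hb changed direction without passing. The members' counts came to about 19.5 estimated molecules in hypoxia, which limits each ratio, and each group is 1 library.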
